A study of Danio rerio with 10 samples.

Results

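Oxidative phosphorylation genes, which encode the respiratory chain and the ATP synthase of mitochondria, were described by the histone marks at their starts in an eye muscle of adult zebrafish, the lateral rectus, before and after injury. Members were the gene symbols of the deposited region tables that begin with nduf, sdha to sdhd, uqcr, cox followed by 4 to 8, or atp5. The rule gave 94 of 24860 gene symbols. They comprised 35 subunits and 7 assembly factors of complex I, 5 subunits and 2 assembly factors of complex II, 8 subunits of complex III, 17 of complex IV, 16 subunits of the ATP synthase (complex V) with its coupling factor atp5s, and 3 genes of the NDUFA4 family. The rule takes in no gene of the mitochondrial genome.

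The electron transport chain passes electrons from NADH through complex I, or from succinate through complex II, to ubiquinone, and from there through complex III and cytochrome c to complex IV, which reduces oxygen. Complexes I, III and IV pump protons across the inner mitochondrial membrane, and the ATP synthase uses their return to make ATP. Muscle with high oxidative demand, such as eye muscle, is rich in mitochondria, and in mammals several complex IV subunits have an isoform of heart and skeletal muscle (COX6A2, COX7A1 and, in rodents, COX8B) beside one of general use (COX6A1, COX7A2, COX8A).

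Chromatin immunoprecipitation and sequencing had been done for 3 histone H3 marks. H3K27Ac is found at promoters and enhancers in use, H3K4me3 at promoters, and H3K27me3 at genes that Polycomb proteins repress. Each mark had 1 library from uninjured muscle (control), 1 at 9 and 1 at 18 hours post-injury (hpi), 9 libraries in all, and the 1 input library was not analysed here. The injury was excision of a segment of 0.5 to 1.0 mm, about 50% of the muscle. Fish were 4 to 18 months old. Tissue of 119 fish was pooled for control, of 192 for 9 hpi and of 200 for 18 hpi. The growth protocol names wild-type fish and transgenic α-actin::EGFP fish, whose muscle fluoresces green, whereas the design text speaks of wild-type fish, and the sources used here do not say which fish entered which pool. The libraries are grouped by their titles and time labels, since control libraries carry the same treatment label as the injured ones.

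Because each mark and time had 1 library, differences have no replicate check, and neither a test nor a spread between fish can be given. Both times are set against the same control library, so changes at 9 and 18 hpi are not independent. Values are the deposited average tag pileup over the bins of a region, a measure per length. A wide region can average in weaker bins, so levels and ratios between genes also depend on region width. Changes compare the same region between libraries. A change is log2((pileup + 1)/(control pileup + 1)). "Higher" and "lower" are used for changes of 2-fold or more, "above" and "below" for any difference. The start region of a gene is the region of the mark whose middle lies nearest to the start of the gene, within 5000 bp. Coordinates are of danRer10, counted from 1.

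Start regions were present for 91 members in H3K27Ac, 92 in H3K4me3 and 29 in H3K27me3, and no region served more than 1 member. The members without an H3K27Ac start region were ndufb3, ndufs8b and uqcr11, whose nearest regions lay 10924, 14537 and 19349 bp away. The farthest start region taken was that of ndufaf3, with its middle 4828 bp from the start. For H3K4me3, ndufb6 and ndufs8b had none, and their nearest regions lay 7239 and 13263 bp away. Of the start regions, 90, 87 and 23 had a mean pileup at or above the 25th percentile of their table. The H3K27Ac region of ndufa4l2a and the H3K4me3 regions of cox4i2, cox6a2, cox7a1, ndufa4 and uqcr11 lay below it, as did the H3K27me3 regions of cox5aa, ndufa11, ndufa4l2a, ndufs7, ndufs8b and sdhc, and all are kept here.

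In bulk tissue, fewer cells of a type and less mark per cell cannot be told apart. The injured libraries differed from control over all genes and in cell type markers. Over the start regions of all genes, the median H3K27Ac change was 0.37 at 9 hpi and -0.15 at 18 hpi, so H3K27Ac changes are also given relative to these medians; for H3K4me3 the medians were -0.05 and -0.02. Of 18 skeletal muscle markers, 12 had an H3K27Ac start region, 10 of them lower at 9 hpi and 11 at 18 hpi, and their summed pileup was 246 in control muscle, 111 at 9 hpi and 73.6 at 18 hpi. Of 12 leukocyte markers, 8 had one, 5 of them higher at 9 hpi and 2 at 18 hpi, with cd74a lower at 18 hpi, and their sum was 75.1, 146 and 95.7. Erythrocyte markers summed to 58.5, 31.8 and 17.4, with 4 of 6 measured, 2 lower at 9 hpi and 4 at 18 hpi. Summed values were 50.2, 43.6 and 31.7 for 4 of 5 slow muscle markers, 92.7, 51.0 and 57.5 for 5 of 7 fibroblast and tendon markers, 55.2, 23.1 and 22.2 for 3 of 5 nerve and Schwann cell markers, 46.1, 57.2 and 36.0 for 4 of 5 endothelial markers, 13.9, 16.4 and 17.3 for 2 of 3 heart markers, and 14.98, 12.7 and 21.7 for 1 of 6 retina and epidermis markers. No marker with a start region was at 0 in any of the 3 H3K27Ac libraries. The part of these shifts in the results below was not tested.

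In control muscle the members carried strong H3K27Ac. Their median pileup was 33.9, against 18.5 for the start regions of all genes. Of 91 members, 84 lay above that general median and 35, or 38.5%, above percentile 90 of all gene starts. The highest average was that of ndufs6, a complex I subunit, with 79.7 in control muscle, 95 at 9 hpi and 47.1 at 18 hpi. Its region of 1800 bp is shared with mrpl36. By the highest pileup in control, sdhb, with a region of 11000 bp, stood above it at 240 against 173. H3K4me3 stood less far above other genes, with a median of 36.3 against 28.0, 71 of 92 members above the general median and 7.61% above percentile 90. The H3K27Ac region spanned the gene start for 95.6% of members and for 85.7% of all genes with a start region, a difference that was not tested. A CpG island lay in 14.3% of the members' H3K27Ac regions and in 21.7% of those of all genes. The region served another gene too for 36.3% of members and for 30.1% of all genes with a start region, so for 33 members the signal cannot be assigned to 1 gene.

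After injury most members moved with the bulk of genes. At 9 hpi, 3 of 91 members, 3.30%, were higher in H3K27Ac, against 12.0% of all gene starts, and 0 were lower, against 4.99%. The 3 were ndufa4, sdhda and cox6b1. At 18 hpi, 5 members, 5.49%, were lower, against 8.98% of all gene starts, and 0 were higher, against 4.09%. The 5 were cox5b2, cox6a2, ndufs7, uqcrc2b and ndufv2. Neither share exceeded that of all genes. With a pseudocount of 5 in place of 1, cox6b1 was no longer higher, and ndufv2 and uqcrc2b were no longer lower. By the highest pileup ndufv2 and uqcrc2b also missed 2-fold. Other settings added calls. With a pseudocount of 0.5, cox4i2 was lower at both times and cox7a1 at 18 hpi. By the highest pileup, ndufa12, ndufaf4 and ndufaf6 were also higher at 9 hpi, and atp5s, cox4i2 and cox7a1 also lower at 18 hpi. With the region of highest signal within 5000 bp in place of the nearest, ndufa4l2a was also higher at 9 hpi. The summed H3K27Ac of the leukocyte markers was highest at 9 hpi and that of the skeletal muscle markers lowest at 18 hpi, and their part in these calls was not tested. Relative to the median of all gene starts, 1 member (ndufa4) was higher at 9 hpi, against 4.26% of all, and 3 (cox4i2, cox5b2, cox6a2) were lower, against 9.43%. On the same relative scale at 18 hpi, 3 members (cox5b2, cox6a2, ndufs7) were lower, against 6.60%, and 0 were higher, against 6.05%. The median change of the members was 0.42 at 9 hpi and -0.28 at 18 hpi, or 0.05 and -0.13 relative to all gene starts. That scale does not allow for signal strength, and the members are strongly marked. All gene starts were split into 5 groups by mean pileup. At 9 hpi their median change was -0.12 in the weakest group, 0.44 in the next to strongest and 0.56 in the strongest. At 18 hpi the 2 strongest groups had -0.13 and -0.10. Relative medians, here and for the complexes below, thus depend on the gene starts taken for comparison. At 9 hpi 81 of 91 members lay above control, against 71.8% of all gene starts, and at 18 hpi 77 lay below it, against 60.8% of all. Both shares were larger among the members, a difference that was not tested.

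**Figure D1:**
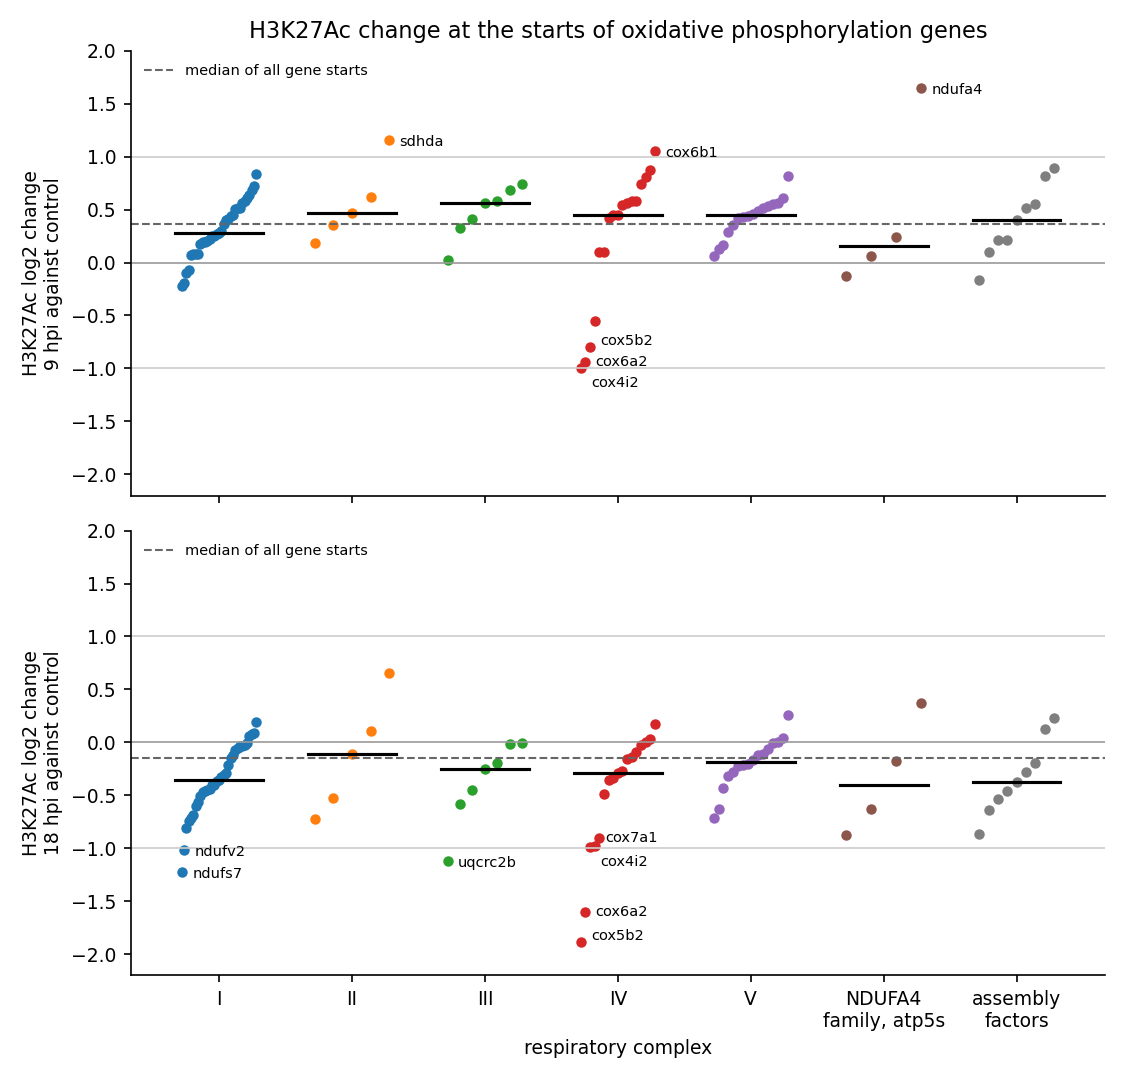
Change of H3K27Ac at the start regions of 91 oxidative phosphorylation genes, at 9 hpi (upper panel) and 18 hpi (lower panel) against the same control library, on a log2 scale. Each point is a gene, black bars are group medians, the dashed line is the median of all gene starts (0.37 and -0.15) and grey lines mark 2-fold. Most points lie within 2-fold of control at both times, and cox5b2 and cox6a2 lie lowest at 18 hpi.

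**Figure D2:**
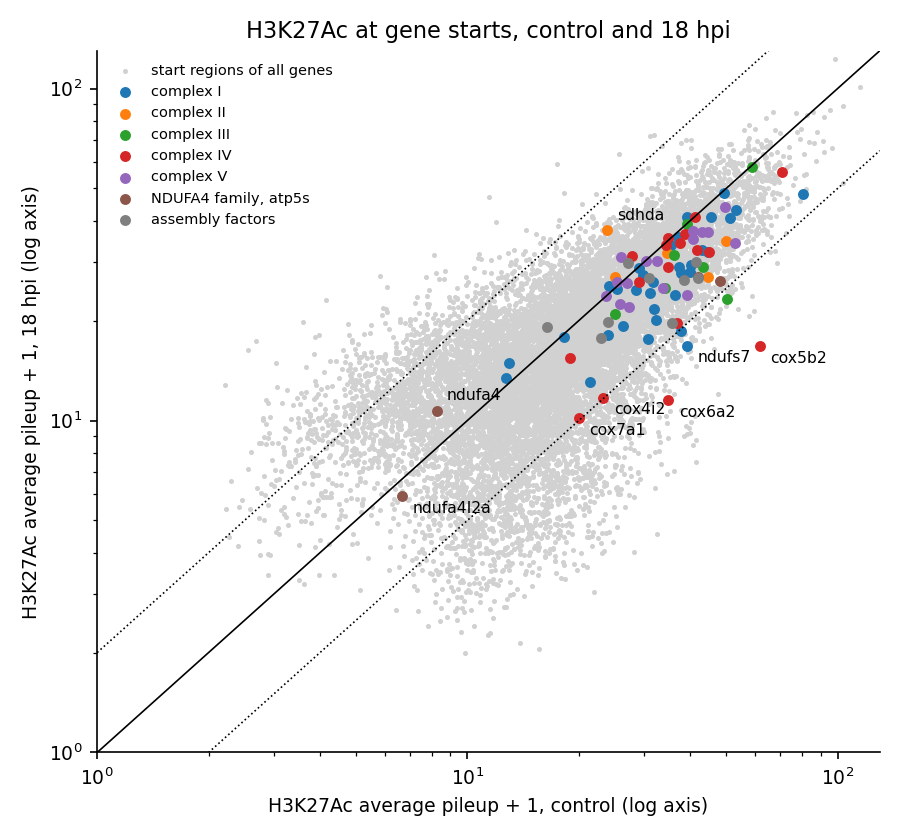
H3K27Ac average pileup plus 1 in control (x axis) and at 18 hpi (y axis), both on log axes, for the start regions of all genes (grey) and for oxidative phosphorylation genes coloured by complex. The solid line marks equal values and the dotted lines 2-fold. Of the 91 members, 84 lie above the general median in control (18.5), and cox5b2 (60.7 to 15.7) and cox6a2 (33.9 to 10.5) lie below the lower dotted line.

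Complex I, the entry point for electrons from NADH, had 33 subunits with an H3K27Ac start region. Their median change was 0.28 at 9 hpi and -0.36 at 18 hpi; relative to all gene starts the sign at 9 hpi turned, to -0.09, and the value at 18 hpi was -0.21. None was higher at either time. The member with the lowest change at both times was ndufs7, which holds the iron-sulfur cluster next to the ubiquinone site. Its start region (chromosome 11, 5844801 to 5846200) had an H3K27Ac pileup of 38.2 in control muscle, 32.5 at 9 hpi and 15.8 at 18 hpi, a change of -0.22 and -1.22. The other lower subunit, ndufv2 of the NADH-oxidizing arm (chromosome 2, 54910801 to 54912800), had 36.7 in control muscle, 34.3 at 9 hpi and 17.6 at 18 hpi. Both were close to control at 9 hpi and under it at 18 hpi, whereas their H3K4me3 was 30.4 in control muscle, 31.2 at 9 hpi and 37.0 at 18 hpi for ndufs7 and 46.5 in control muscle, 47.1 at 9 hpi and 48.8 at 18 hpi for ndufv2.

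Both belong to the 7 nuclear-encoded subunits of the catalytic core, a group looked at after the values of these genes had been seen. The median change of the core was 0.08 at 9 hpi and -0.56 at 18 hpi, against 0.33 and -0.32 for the other 26 subunits. All 7 core genes lay below control at 18 hpi, as did 60.8% of all gene starts. Relative to all gene starts both medians at 9 hpi turned, to -0.28 for the core and -0.04 for the others. Those at 18 hpi were -0.41 and -0.17, with 5 of the 7 core genes below on that scale. The core subunit with the largest increase was ndufs3, at 24.4 in control muscle, 44.4 at 9 hpi and 23.9 at 18 hpi, a change of 0.83 and -0.03. It lay above control at 9 hpi and next to it at 18 hpi. The core genes ndufs1, ndufs8a and ndufv1 changed by -0.60, -0.44 and -0.56 at 18 hpi. At the upper end, ndufab1b, a mitochondrial acyl carrier protein, had 12.0 in control muscle, 19.2 at 9 hpi and 13.9 at 18 hpi, the subunit change furthest above control at 18 hpi (0.19). Its region also serves another gene. Its paralog ndufab1a had 30.1 in control muscle, 46.3 at 9 hpi and 23.3 at 18 hpi, so the ratio of ndufab1a to ndufab1b was 2.51 in control muscle, 2.41 at 9 hpi and 1.68 at 18 hpi.

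Complex I assembly factors help build the complex and are not part of it. With those of complex II, 9 factors had a median H3K27Ac change of 0.41 at 9 hpi and -0.38 at 18 hpi, and none was higher or lower. Among the complex I factors, ndufaf6 had the largest increase at 9 hpi, with 37.4 in control muscle, 70.1 at 9 hpi and 25.5 at 18 hpi and a change of 0.89. It shares its region with zgc:165534. Another factor, ndufaf3, had 15.4 in control muscle, 28.0 at 9 hpi and 18.2 at 18 hpi, above control at both times, but its region also serves capzb and celsr2. In H3K4me3 these 2 lay on opposite sides of control: ndufaf6 had 23.0 in control muscle, 31.0 at 9 hpi and 34.9 at 18 hpi, and ndufaf3, measured at another region, had 36.3 in control muscle, 30.1 at 9 hpi and 23.8 at 18 hpi.

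Complex II, succinate dehydrogenase, also acts in the tricarboxylic acid cycle. Its 5 subunits had a median H3K27Ac change of 0.47 at 9 hpi and -0.11 at 18 hpi; relative to all gene starts these were 0.10 and 0.04, so the sign at 18 hpi turned. The flavoprotein subunit sdha had 33.5 in control muscle, 46.7 at 9 hpi and 31.0 at 18 hpi, from a region shared with ccdc127b. The iron-sulfur subunit sdhb had 24.1 in control muscle, 37.6 at 9 hpi and 26.1 at 18 hpi, from a region shared with atad3b and mrpl20. Both stood above control at 9 hpi and near it at 18 hpi. The membrane anchor sdhc had 43.7 in control muscle, 56.3 at 9 hpi and 26.1 at 18 hpi, a change of -0.73 at 18 hpi.

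The paralogs for the other membrane anchor, sdhda and sdhdb, lay on opposite sides of control at 18 hpi. The region of sdhda had 22.8 in control muscle, 52.0 at 9 hpi and 36.5 at 18 hpi, a change of 1.16 and 0.66, the member furthest above control at 18 hpi. It lies on chromosome 5 (29489201 to 29491400), its middle 2373 bp upstream of the sdhda start, does not span that start, and is shared with timm8b, an import chaperone gene. Its paralog sdhdb had 48.9 in control muscle, 55.9 at 9 hpi and 33.7 at 18 hpi, below control at 18 hpi. The ratio of sdhda to sdhdb was 0.47 in control muscle, 0.93 at 9 hpi and 1.08 at 18 hpi. In H3K4me3, sdhda had 35.7 in control muscle, 35.3 at 9 hpi and 34.2 at 18 hpi and sdhdb 34.4 in control muscle, 35.1 at 9 hpi and 37.2 at 18 hpi, and their ratio stayed between 0.92 and 1.04.

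The assembly factor of the iron-sulfur subunit, sdhaf1, had an H3K27Ac pileup of 40.9 in control muscle, 43.9 at 9 hpi and 25.9 at 18 hpi and an H3K4me3 pileup of 17.4 in control muscle, 21.9 at 9 hpi and 33.1 at 18 hpi. The 2 marks thus stood on opposite sides of control at 18 hpi, with changes of -0.64 and 0.89. The factor that helps attach the flavin to sdha, sdhaf2, had 34.7 in control muscle, 30.9 at 9 hpi and 18.6 at 18 hpi in H3K27Ac and 19.3 in control muscle, 26.7 at 9 hpi and 28.3 at 18 hpi in H3K4me3, the same arrangement. H3K4me3 of the other subunits in control, at 9 and at 18 hpi was 39.9, 36.3 and 43.5 for sdha, 41.6, 37.7 and 31.7 for sdhb and 31.1, 28.8 and 36.7 for sdhc.

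Complex III carries electrons from ubiquinol to cytochrome c. Its 7 subunits with an H3K27Ac start region had a median change of 0.56 at 9 hpi and -0.26 at 18 hpi. All 7 lay above control at 9 hpi, as did 71.8% of all gene starts. At 18 hpi all 7 lay below it, as did 60.8% of all. Relative to all gene starts the medians were 0.20 and -0.11, with 5 of 7 above at 9 hpi and 5 below at 18 hpi. The lowest at both times was uqcrc2b, 1 of 2 genes for a core protein, on chromosome 12 (10403001 to 10404200), with 49.3 in control muscle, 50.1 at 9 hpi and 22.2 at 18 hpi. It was near control at 9 hpi (0.02) and lower at 18 hpi (-1.12), while its H3K4me3 was 22.1 in control muscle, 24.8 at 9 hpi and 26.4 at 18 hpi. Its paralog uqcrc2a had 24.1 in control muscle, 39.4 at 9 hpi and 20.0 at 18 hpi in a region shared with another gene. The ratio of uqcrc2a to uqcrc2b was 0.49 in control muscle, 0.79 at 9 hpi and 0.90 at 18 hpi. These regions measure 4800 and 1200 bp, and their highest pileups in control were 133 and 138. The other core protein gene uqcrc1 had the largest increase at 9 hpi, with 57.6 in control muscle, 96.8 at 9 hpi and 57.1 at 18 hpi. The Rieske iron-sulfur protein gene uqcrfs1 had 38.3 in control muscle, 51.3 at 9 hpi and 38.0 at 18 hpi, a change of -0.01 at 18 hpi, the closest to control in the complex.

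Complex IV, cytochrome c oxidase, held the widest spread. Its 17 genes had a median H3K27Ac change of 0.45 at 9 hpi and -0.29 at 18 hpi, close to the other complexes, but single genes ran from -1.88 to 0.17 at 18 hpi. The gene cox5b2, a gene for the zinc-binding subunit 5B, had its start region on chromosome 13 (50062201 to 50063600), with 60.7 in control muscle, 34.4 at 9 hpi and 15.7 at 18 hpi. In control it lay at percentile 99.1 of all gene starts. The pileup was below control at 9 hpi (-0.80) and lower at 18 hpi (-1.88, 3.69-fold), where 152 of 14476 gene starts had as low or a lower change. The region kept a called interval in all 3 libraries.

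Muscle-type isoforms were followed next. The gene cox6a2 (chromosome 3, 30907601 to 30911200) had an H3K27Ac pileup of 33.9 in control muscle, 17.2 at 9 hpi and 10.5 at 18 hpi, a change of -0.94 and -1.60. Its general counterpart cox6a1, from a region shared with another gene, had 33.8 in control muscle, 59.95 at 9 hpi and 34.6 at 18 hpi. The pair was level in control and apart after injury, with a ratio of cox6a2 to cox6a1 of 1.00 in control muscle, 0.29 at 9 hpi and 0.30 at 18 hpi.

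The gene cox7a1, sharing its region with rnaset2l, had 19.0 in control muscle, 12.6 at 9 hpi and 9.14 at 18 hpi, and its counterpart cox7a2a 69.8 in control muscle, 102 at 9 hpi and 55.0 at 18 hpi. Their ratio was 0.27, 0.12 and 0.17. Their regions measure 5600 and 800 bp, and their highest pileups in control were 105 and 152. For the third pair, cox8b had 35.8 in control muscle, 38.4 at 9 hpi and 18.7 at 18 hpi and cox8a 26.9 in control muscle, 50.1 at 9 hpi and 30.3 at 18 hpi, with a ratio of 1.33, 0.77 and 0.62. In all 3 pairs the ratio was below control at both times. So was that of cox6b2 to cox6b1 (2.46, 1.23 and 2.16). The same held for atp5g3a to atp5g3b (1.31, 0.99 and 1.12) and atp5ia to atp5ib (1.46, 1.14 and 0.92). It also held for cox4i2 to cox4i1 and ndufab1a to ndufab1b. Those of sdhda to sdhdb and uqcrc2a to uqcrc2b stood above control, and that of cox5aa to cox5ab on both sides. For paralogs named a and b the order in the ratio is arbitrary, so the side of control has no meaning there. The cox6b and cox4i ratios also lay below control, so that side alone was not particular to the muscle-type pairs. Counting sides does not compare the sizes of the shifts. The median change of the 3 muscle-type genes was -0.55 at 9 hpi and -0.98 at 18 hpi, and that of the 3 counterparts 0.81 and 0.03. Relative to all gene starts, the muscle-type medians were -0.92 and -0.83, both the value of cox7a1, and those of the counterparts 0.44 and 0.18. On that scale the other muscle-type genes fell further from 9 to 18 hpi. The values went from -1.30 to -1.45 for cox6a2 and from -0.26 to -0.75 for cox8b. The skeletal muscle marker sum stood at 246, 111 and 73.6 in the same libraries. Its part in the difference between muscle-type genes and counterparts was not tested.

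The hypoxia-linked isoform of mammals, cox4i2, had 22.3 in control muscle, 10.6 at 9 hpi and 10.7 at 18 hpi at its start, in a region shared with LOC103909674. With the pseudocount of 1 both changes were just short of 2-fold, and with 0.5 both passed it. Relative to all gene starts cox4i2 was lower at 9 hpi (-1.36). Its paralog cox4i1 had 33.3 in control muscle, 44.8 at 9 hpi and 32.8 at 18 hpi, from an upstream region that does not span its start and is shared with emc8. With that upstream region the ratio of cox4i2 to cox4i1 was 0.67, 0.24 and 0.33. Another cox4i1 region, its middle 3614 bp downstream, reaches over the start and is also named with gins2, emc8 and dusp22a. It had 26.6 in control muscle, 21.1 at 9 hpi and 12.9 at 18 hpi, changes of -0.32 and -0.99. The H3K4me3 start region of cox4i1 lies at that other place and is shared with dusp22a. The contrast between the paralogs thus depends on the region taken.

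The other complex IV genes lay near or above control at 9 hpi. The gene cox6b1, which encodes a subunit at the dimer interface, had 17.9 in control muscle, 38.3 at 9 hpi and 14.4 at 18 hpi; it was higher at 9 hpi (1.06) and its change at 18 hpi was -0.29. Its paralog cox6b2 had 44.0 in control muscle, 47.1 at 9 hpi and 31.1 at 18 hpi. The subunit 5A genes had, in control, at 9 and at 18 hpi, 37.8, 57.0 and 35.4 for cox5aa and 28.0, 47.6 and 25.1 for cox5ab. In the same order, cox6c had 33.9, 46.7 and 27.9 and cox7b 40.8, 56.1 and 31.6, from regions shared with tomm34 and pgk1. Likewise cox7c had 36.5, 54.6 and 33.2 and cox7a3 40.2, 60.6 and 40.2. The last is now named cox7a2l, after a gene that in mammals links complexes III and IV. Each of these 6 was above control at 9 hpi, and none was below it by 2-fold at 18 hpi.

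**Figure D3:**
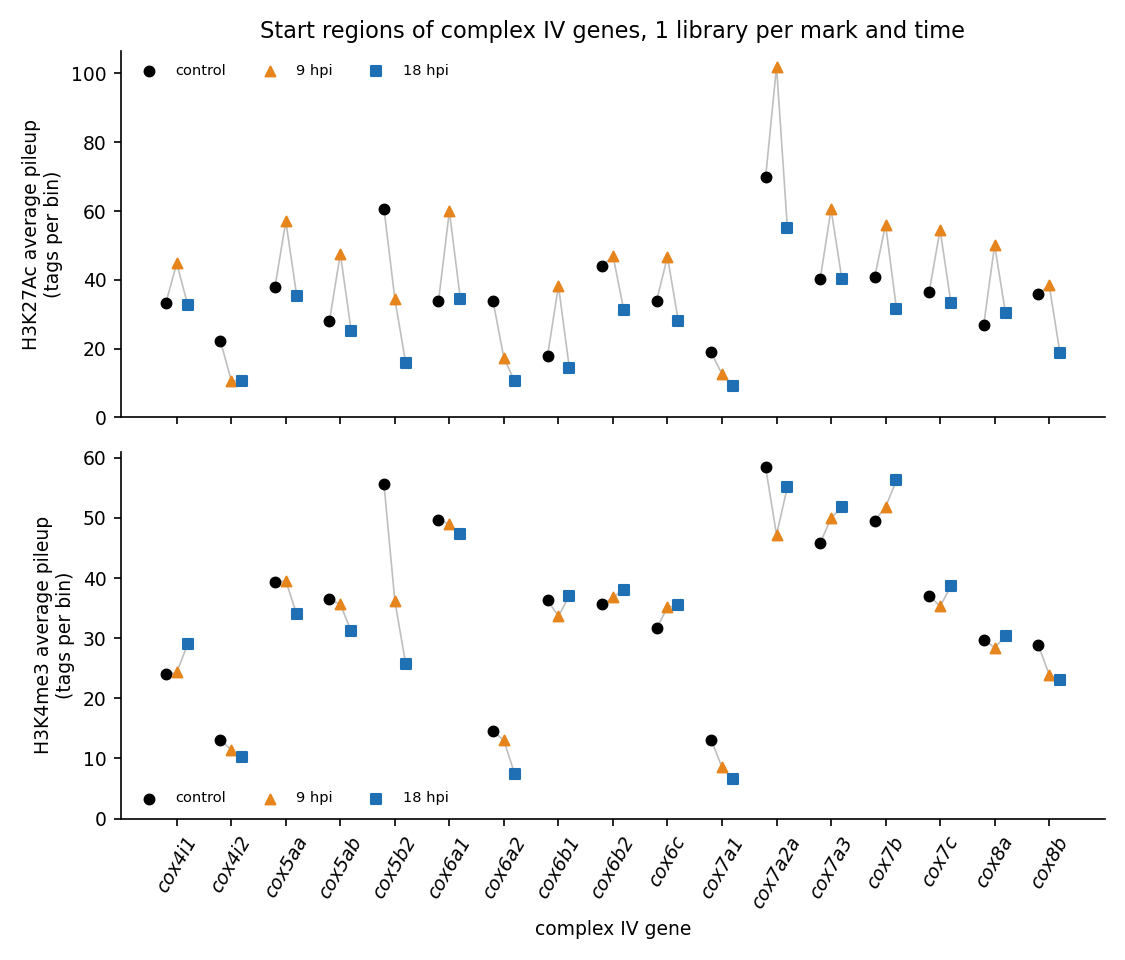
Average tag pileup of the start regions of the 17 complex IV genes in control (circles), at 9 hpi (triangles) and at 18 hpi (squares), for H3K27Ac (upper panel) and H3K4me3 (lower panel), each point 1 library, axes from 0. Most genes peak in H3K27Ac at 9 hpi, whereas cox5b2, cox6a2, cox7a1 and cox4i2 lie below control at both times.

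H3K4me3 changed less. At 9 hpi 0 of 92 members were higher and 0 lower, against 2.75% and 3.02% of all gene starts. At 18 hpi 1 member was lower, against 3.10%, and 0 were higher, against 3.84%. The lower member was cox5b2, with 55.6 in control muscle, 36.2 at 9 hpi and 25.7 at 18 hpi and a change of -1.09. It was not lower with a pseudocount of 5 or by the highest pileup. By the highest pileup, cox7a1 was lower at 9 hpi (-1.24), and cox7a1 (-1.63) and cox6a2 (-1.29) were lower at 18 hpi. On that measure ndufa4, sdhaf1 and uqcr11 were higher at 18 hpi. By the average pileup, the muscle-type isoforms cox7a1 and cox6a2 were next lowest at 18 hpi, whereas cox8b, the third, changed by -0.32. H3K4me3 of cox7a1 was 13.1 in control muscle, 8.52 at 9 hpi and 6.52 at 18 hpi, and that of cox6a2 14.6 in control muscle, 13.0 at 9 hpi and 7.35 at 18 hpi, changes of -0.91 and -0.90 at 18 hpi. Their pileups were weak in control, at percentiles 20.1 and 22.9 of all gene starts.

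The muscle-type median was -0.26 at 9 hpi and -0.90 at 18 hpi, and that of the counterparts -0.07 at both times. The H3K4me3 regions of the counterparts cox6a1 and cox8a also serve si:ch211-170d8.8 and otub1a, so their signal cannot be assigned to 1 gene. Such sharing held for 39 of 92 members in H3K4me3, 42.4%, against 30.8% of all genes with a start region. In the same H3K4me3 libraries 12 skeletal muscle markers summed to 141 in control muscle, 55.4 at 9 hpi and 66.4 at 18 hpi, with 10 lower at 9 hpi and 8 at 18 hpi. For 8 leukocyte markers the H3K4me3 sum was 45.1, 97.1 and 125, with 6 higher at 9 hpi and 7 at 18 hpi. The part of these shifts in the isoform values was not tested. The isoform cox8b had 28.8 in control muscle, 24.0 at 9 hpi and 23.0 at 18 hpi, and cox4i2 13.1 in control muscle, 11.4 at 9 hpi and 10.2 at 18 hpi. The counterparts had, in control, at 9 and at 18 hpi, 49.7, 48.9 and 47.3 for cox6a1, 58.4, 47.2 and 55.2 for cox7a2a and 29.8, 28.4 and 30.3 for cox8a. The other complex IV genes had 24.0, 24.3 and 29.0 for cox4i1, 39.3, 39.5 and 33.9 for cox5aa, 36.5, 35.6 and 31.1 for cox5ab, 36.3, 33.7 and 37.0 for cox6b1, 35.7, 36.8 and 38.1 for cox6b2, 31.6, 35.1 and 35.4 for cox6c, 45.8, 49.9 and 51.8 for cox7a3, 49.5, 51.8 and 56.2 for cox7b and 37.1, 35.3 and 38.7 for cox7c. None of these 12 moved by 1.5-fold.

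Of the 90 members with both marks, 44 lay below control in H3K27Ac and above it in H3K4me3 at 18 hpi. A further 32 lay below in both, 5 above in both, 8 above in H3K27Ac and below in H3K4me3, and cox7a3 was level in H3K27Ac. Of all gene starts at 18 hpi, 60.8% lay below control in H3K27Ac and 47.8% above it in H3K4me3. The share of all genes with each pair of signs was not computed, so these counts are not read as a trait of the members. Of these 90, 3 were below control by 1.5-fold or more in both marks, namely cox5b2, cox6a2 and cox7a1; of all 15751 genes with both marks, 3.87% were. The members ndufs7, ndufv2 and uqcrc2b, lower in H3K27Ac, were all above control in H3K4me3.

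**Figure D4:**
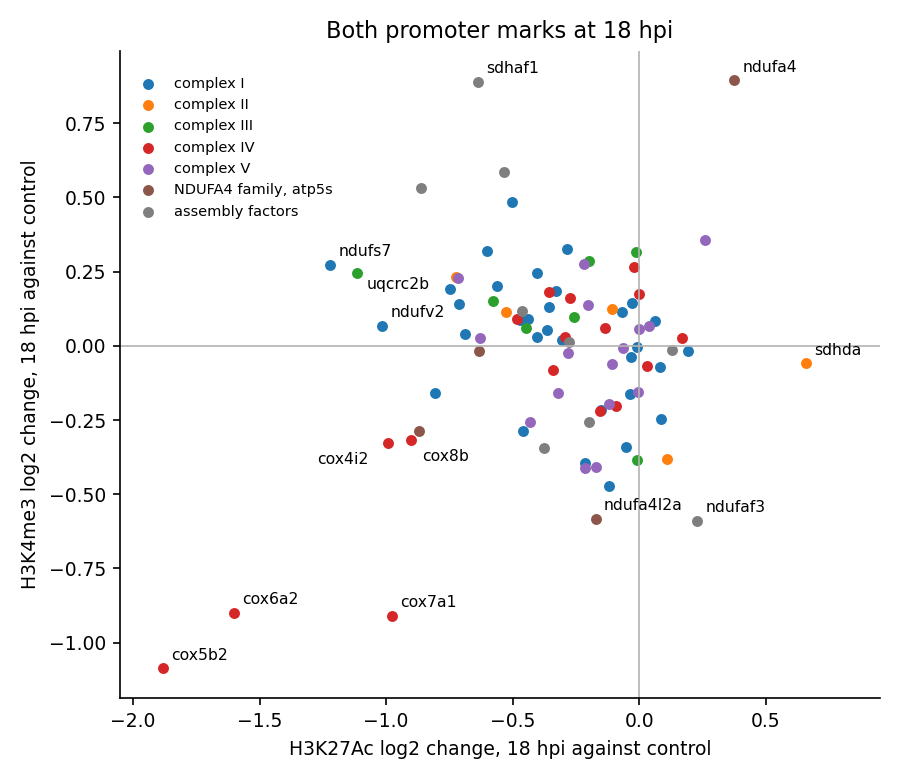
Change at 18 hpi against control of H3K27Ac (x axis) and H3K4me3 (y axis), both log2, for the 90 members with a start region in both marks, coloured by complex. The 3 points at lower left are cox5b2, cox6a2 and cox7a1, and ndufa4 lies at upper right with 0.38 and 0.89.

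The ATP synthase subunits had the narrowest range of changes at 18 hpi among the 5 complexes. Its 16 subunits had a median H3K27Ac change of 0.45 at 9 hpi and -0.19 at 18 hpi, none higher or lower at either time. All 16 lay above control at 9 hpi, as did 71.8% of all gene starts. Relative to all gene starts, 11 lay above and 5 below at that time. The peripheral stalk gene atp5h had the largest increase at both times, with 24.99 in control muscle, 44.9 at 9 hpi and 30.1 at 18 hpi; it shares its region with slc16a5b. The lowest at 18 hpi among subunits was atp5ia, with 38.2 in control muscle, 43.0 at 9 hpi and 22.8 at 18 hpi, and at 9 hpi atp5g3a, a gene of the proton-carrying ring, with 32.7 in control muscle, 34.2 at 9 hpi and 24.0 at 18 hpi. The coupling factor gene atp5s, now named dmac2l, lay lowest of all complex V genes at both times, with 47.0 in control muscle, 42.9 at 9 hpi and 25.2 at 18 hpi, changes of -0.13 and -0.87, from a region that also served another gene. The catalytic head genes had, in the order control, 9 and 18 hpi, 39.6, 54.0 and 36.3 for atp5a1 and 48.6, 65.2 and 43.1 for atp5b. The region of atp5a1 is shared with haus1.

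The NDUFA4 family was first counted with complex I, and NDUFA4 is now placed in complex IV in mammals. The start region of ndufa4, now named ndufa4b (chromosome 12, 9842601 to 9843600), had the largest increase of any member at 9 hpi. Its H3K27Ac pileup was 7.26 in control muscle, 24.9 at 9 hpi and 9.71 at 18 hpi, a change of 1.65 and 0.38, and an interval was called at 9 hpi only. Its control value was at percentile 8.9 of all gene starts. H3K4me3 was 5.81 in control muscle, 9.65 at 9 hpi and 11.7 at 18 hpi, with intervals at 9 and 18 hpi only, and 0.89 was the largest increase of any member at 18 hpi. An H3K27me3 region also spanned the start, with 6.95 in control muscle, 8.28 at 9 hpi and 6.62 at 18 hpi, called in all 3 libraries. By contrast ndufa4l, now ndufa4a, had 40.9 in control muscle, 48.6 at 9 hpi and 26.0 at 18 hpi in H3K27Ac and no H3K27me3 start region. The third gene, ndufa4l2a, whose mammalian counterpart responds to low oxygen, had 5.67 in control muscle, 5.95 at 9 hpi and 4.92 at 18 hpi at an H3K27Ac region that does not span its start. With the region of highest signal within 5000 bp taken instead, ndufa4l2a was higher in H3K27Ac at 9 hpi. Its H3K4me3 start region had 57.5 in control muscle, 57.5 at 9 hpi and 38.1 at 18 hpi, a change of -0.58 at 18 hpi. That H3K4me3 region does not span the start either and is shared with actr5.

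H3K27me3 was rare at these genes. A start region was found for 29 of 94 members, 30.9%, against 40.5% of all gene symbols, and 10 of the 29, 34.5%, spanned the gene start, against 77.7% of all genes with a region. None was higher or lower, against 0.373% and 0.0601% of all gene starts at 9 hpi and 0.469% and 0.132% at 18 hpi. The highest control value was that of atp5h, with 21.8 in control muscle, 19.6 at 9 hpi and 16.9 at 18 hpi. Next came atp5l with 15.99, 16.7 and 15.8, atp5a1 with 15, 15.5 and 15.5, ndufs4 with 12.9, 9.75 and 8.11, cox4i1 with 12.9, 9.72 and 11.7, ndufs3 with 12.06, 11.5 and 10.4, ndufb8 with 10.8, 13.2 and 10.3 and ndufs8a with 10.2, 11.1 and 9.67 in control, at 9 and at 18 hpi.

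Values in the same order were 9.89, 10.2 and 9.85 for atp5ia, 9.67, 7.81 and 7.05 for ndufb10, 9.60, 7.26 and 5.80 for atp5o, 9.51, 9.77 and 7.38 for sdhaf1, 9.02, 8.69 and 9.97 for cox6b1, 8.50, 7.81 and 8.19 for sdhda, 7.98, 7.92 and 8.55 for cox8b, 7.83, 8.12 and 7.74 for ndufv3, 7.78, 6.20 and 7.73 for ndufa9a, 7.19, 11.4 and 11.4 for ndufa7 and 7.05, 7.05 and 6.47 for ndufv1. Beside ndufa4, described above, those under 7 tags per bin in control were 6.78, 7.87 and 7.79 for ndufa1, 6.70, 6.36 and 8.61 for atp5b, 6.63, 5.45 and 6.20 for cox5aa, 6.51, 7.11 and 7.43 for cox8a, 6.32, 5.91 and 7.15 for ndufa11, 6.16, 7.03 and 4.84 for ndufs7, 6.14, 5.09 and 5.95 for sdhc, 5.47, 7.19 and 6.50 for ndufa4l2a and 5.16, 5.45 and 5.24 for ndufs8b. The changes furthest above control were those of ndufa7, 0.60 at 9 hpi and 0.59 at 18 hpi. Those furthest below it were -0.38 for cox4i1 at 9 hpi and -0.64 for atp5o at 18 hpi. The regions of ndufa7, cox4i1 and atp5o do not span the gene start and also serve kank3, emc8 and LOC568338, respectively. The ndufa7 region was not called in control, and the atp5o region was called in control only. The H3K27me3 region served another gene too for 12 of 29 members, 41.4%, against 33.3% of all genes with a region. For ndufs8b, a second gene for an iron-sulfur subunit of complex I, H3K27me3 gave the sole start region.

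Regions other than the start regions were also named with complex IV genes, 24 in H3K27Ac, and only some are described. Among them is the downstream cox4i1 region given above, which reaches over the start. Upstream of cox8b, at a distance of 5862 bp, a region had 15.1 in control muscle, 3.05 at 9 hpi and 2.68 at 18 hpi, called in control only. Upstream of cox6a1, at 5731 bp, another had 15.4, 4.20 and 5.68, also called in control only, while the start of cox6a1 itself stood above control at 9 hpi. At 8058 bp upstream of cox5b2 a region had 29.7, 46.0 and 29.5, so it did not follow the cox5b2 start. It is also named with sirt1 and dnajc12. For the general counterpart cox7a2a, a region 7762 bp from its start had 10.0, 7.84 and 3.20. Another, 14062 bp from it, had 12.9, 14.0 and 5.52. Both were lower at 18 hpi (-1.39 and -1.09), and both are also named with col12a1a. The regions upstream of cox8b and cox6a1 are also named with si:dkeyp-88b11.3 and si:ch211-170d8.8. The signal of these regions thus cannot be assigned to 1 gene.

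Other genes of oxidative metabolism were counted in H3K27Ac from gene lists. The list of adenine nucleotide and phosphate carriers, with mitochondrial creatine kinases and outer membrane channels, had 4 of 10 measured genes lower at both times, against 4.38% of all gene starts. Among them the mitochondrial creatine kinase gene ckmt2b had 40.4 in control muscle, 12.9 at 9 hpi and 6.50 at 18 hpi, and ckmt2a 21.5, 4.96 and 3.44; the other 2, named after their values were seen, were slc25a4 and slc25a3a. Of 16 regulators of mitochondrial genes, 2 were lower at both times, beside the same 4.38% of all gene starts. They were esrrga with 18.5, 7.64 and 4.86 and ppargc1a with 17.8, 7.41 and 5.25, an estrogen-related receptor and a coactivator of mitochondrial genes. The 2 that were higher at 9 hpi, also named after their values were seen, were pprc1 and esrrgb; the share of all gene starts higher then was 12.0%.

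Of 13 genes of fatty acid oxidation, 1 was lower at both times, against 4.38% of all gene starts. It was the carnitine palmitoyltransferase gene cpt1b with 38.0, 17.3 and 15.8, while etfb, an electron transfer flavoprotein subunit, had 45.6, 45.5 and 27.5. Of 27 assembly and copper or heme factors, 0 were lower at 9 hpi and 3 at 18 hpi, against 4.99% and 8.98% of all gene starts, with atpaf2 as the third beside lyrm7, a complex III assembly factor, at 19.0, 12.2 and 4.52 and coa5 at 36.5, 25.8 and 14.6. Of 13 mobile carrier and cofactor genes, 2 were higher at 9 hpi, pdss1 and pdss2, against 12.0% of all gene starts; coq2, of ubiquinone synthesis, had 16.9, 15.4 and 8.74, and atpif1a, an inhibitor of the ATP synthase, 14.6, 29.6 and 25.6. None of 19 tricarboxylic acid cycle genes was higher or lower; idh3b had 31.7, 39.9 and 19.7 and sucla2 42.4, 48.2 and 26.7. Of 67 mitochondrial ribosomal protein genes, 4 were higher at 9 hpi (mrps15, mrps26, mrps30, mrps35), a share below the 12.0% of all gene starts. Of the same 67, 1 was lower at 18 hpi, a share below the general 8.98%, namely mrpl38 with 50.9, 39.1 and 24.5, and mrpl23 had 23.4, 15.9 and 11.3. The medians of these lists at 18 hpi ran from -0.53 for the carriers to -0.17 for the tricarboxylic acid cycle, beside -0.28 for the members and -0.15 for all gene starts.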

How the data were processed

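Chromatin of lateral rectus muscle was sonicated to fragments of 300 to 500 bp and precipitated for each mark, per the labels' protocols. BWA, MACS2 2.1.0, SICER 12.1 and the build danRer10 are named in the submitters' processing notes, but not what each was used for. For each mark the authors deposited a table of merged regions whose values are signal: the average and highest tag pileup of each library, with no ratio to input. The deposited tables also hold columns of another kind, 0 or 1 for an interval called in each library. How libraries were normalized to each other is not stated there, and the unknown depth leaves counting precision undefined. No column was left unmatched to a sample.

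Start regions, changes with a pseudocount of 1, counts at 2-fold and medians were computed with Python 3.11.15, pandas 2.3.3 and numpy 2.4.6 and checked on simulated data; plots used matplotlib 3.10.9. Start regions were not filtered on low values. Medians and background shares are over distinct regions. No test across libraries was possible. Genes named are all complex II and complex IV members, the lowest and highest changes in complexes I, III and V, members past 2-fold, members with an H3K27me3 start region and the 2 largest H3K27Ac changes at 18 hpi in each other list; further genes, the catalytic core group, regions away from starts and interval features were picked after values were seen. The members and lists were chosen with earlier results of these data known. Symbols are those of the files; 74 matched a RefSeq name table by symbol and 20 by synonym, used for current names only. No sequences were examined. Values are not printed singly for every member.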

Additional observations from a re-analysis of the deposited data

Results flagged for a closer look

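Several values lay on opposite sides of control at 9 and 18 hpi. The difference between the times was not tested, since each has 1 library and both share the control library, and the median of all gene starts went the same way in H3K27Ac (0.37 and -0.15). The median H3K27Ac change was 0.42 and -0.28 for all members, 0.28 and -0.36 for complex I, 0.47 and -0.11 for complex II, 0.56 and -0.26 for complex III, 0.45 and -0.29 for complex IV, and 0.45 and -0.19 for complex V. Relative to all gene starts the signs were no longer opposite for complex I (-0.09 and -0.21) and complex II (0.10 and 0.04). These relative values do not allow for signal strength.

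Of the 91 members with an H3K27Ac start region, 67 had opposite signs at the 2 times, and 2 of these also passed 2-fold at 1 time. The change of cox6b1 was 1.06 at 9 hpi and -0.29 at 18 hpi, and that of uqcrc2b was 0.022 and -1.12. In H3K4me3, 30 of 92 members had opposite signs and 0 of them passed 2-fold, and in H3K27me3 13 of 29 and 0. The share of all gene starts with opposite signs was not computed for any mark, so these counts are not read as a trait of the members. In H3K27Ac, 71.8% of all gene starts lay above control at 9 hpi and 60.8% below it at 18 hpi.

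The H3K4me3 medians with opposite signs were all small. They were -0.015 and 0.034 for all members, -0.010 and 0.068 for complex I, -0.11 and 0.11 for complex II, and 0.029 and -0.016 for complex V.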

How the results depend on the processing

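No paired analysis was possible because each mark and time has 1 library, and for the same reason no library could be left out. Of the counts of members higher or lower under each alternative, 73 stayed within 1.5 times the reported count and 23 did not. With a fold of 1.5, H3K27Ac had 18 members higher and 3 lower at 9 hpi and 1 higher and 20 lower at 18 hpi, and H3K4me3 had 1 higher and 1 lower at 9 hpi and 2 higher and 4 lower at 18 hpi. With changes centred on all gene starts or on regions past the low value filter, H3K27Ac had 1 higher and 3 lower at 9 hpi and 3 lower at 18 hpi; centred among gene starts of like signal, it had 1 higher and 3 lower at 9 hpi. With a pseudocount of 5, 3 members were lower in H3K27Ac and 0 in H3K4me3 at 18 hpi, and with 0.5, 1 was lower in H3K27Ac at 9 hpi. With the highest pileup, 6 were higher in H3K27Ac at 9 hpi, 1 was lower in H3K4me3 at 9 hpi, and 3 were higher and 2 lower in H3K4me3 at 18 hpi. In H3K27Ac, cox5b2, cox6a2 and ndufs7 were lower at 18 hpi and ndufa4 higher at 9 hpi under every setting run, whereas cox5b2 was not lower in H3K4me3 at 18 hpi with a pseudocount of 5 or with the highest pileup. Regions limited to those that span the gene start, an alternative chosen after seeing the data, left out sdhda. Sequence features of promoters and proteins were not run. The tag number per library is unknown, and it limits weak regions most.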
